A study of Mus musculus with 4 samples.

Results

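Cathepsins are the main proteases of the lysosome, and the 10 genes described here encode those that the lysosomes and endosomes of macrophages and their neighbours use. They were Ctsb, Ctsc, Ctsd, Ctse, Ctsf, Ctsh, Ctsk, Ctsl, Ctss and Ctsz, chosen by name among the 22180 genes that the arrays' annotation names with a single symbol. Each of the 10 was measured by 1 transcript cluster, a group of probes against a transcript, and all 10 were among the 13133 genes bright enough to test. RNA came from macrophages of mouse ear dermis, sorted by fluorescence into CX3CR1bright and CX3CR1low cells, with 2 Affymetrix arrays for each subset. CX3CR1 is the receptor for the chemokine fractalkine. All mice were untreated adult C57Bl/6 animals of genotype Cx3cr1+/gfp, so that every animal of both subsets had GFP in place of 1 Cx3cr1 allele. Each array stands for a pool of 3 to 6 mice, and the 2 arrays of a subset came from separate litters.

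Cathepsins are made as inactive precursors, are carried to the lysosome mainly by mannose-6-phosphate receptors, and become active in its acid. Most belong to the cysteine proteases, while cathepsins D and E are aspartic proteases. Besides breaking down proteins taken up by the cell, in antigen-presenting cells they trim the invariant chain and antigens for loading onto MHC class II. In connective tissue, secreted cathepsins K, L and S can cut collagen and elastin.

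Values are RMA levels on the log2 scale, where 1 unit is a 2-fold step. The arrays had medians of 3.65 to 3.68, near which a level can be background. Levels of different genes come from different probes and cannot be ranked against each other. Differences are CX3CR1bright minus CX3CR1low, with the moderated SE from limma and n = 2 arrays per subset. Cx3cr1, which defined the sort, stood at 8.42 and 8.44 on the CX3CR1bright arrays, against 3.63 and 3.60 on the CX3CR1low arrays. All 11 analysed macrophage markers lay above the array median on all 4 arrays, and their median level was 10.8 and 10.9 on the CX3CR1bright arrays, against 11.4 and 11.4 on the CX3CR1low arrays. Markers of other skin cells were measured too. By the median of each list relative to the CX3CR1low mean, keratinocyte and Langerhans cell markers stood highest on CX3CR1bright replicate 2. T cell, fibroblast and conventional dendritic cell markers stood highest on CX3CR1bright replicate 1, and mast cell markers on the CX3CR1low arrays.

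In CX3CR1bright macrophages 8 of the 10 cathepsins had a negative difference and 2, Ctse and Ctsh, a positive one (7 and 3 after quantile normalization or cyclic loess, where Ctsz turned positive). The differences ran from -1.83 for Ctsk to 1.39 for Ctse. Their median was -0.34, beside -0.070 over all 13133 tested genes, of which 57.5% had a negative difference. That share was 51.2% after quantile normalization and 48.2% after cyclic loess. The macrophage markers had a like median of -0.34, with 8 of 11 negative and 10 of 11 without overlap between the subsets. None of the 10 passed an adjusted p of 0.05 in limma, a threshold that 18 of all tested genes, or 0.137%, passed. Those were 10 lower genes (0.0761%) and 8 higher genes (0.0609%), and after cyclic loess 14 lower and 19 higher ones. At an unadjusted p under 0.05 stood 6 of the 10, 4 lower and 2 higher, where 18.8% of all tested genes did (11.8% lower and 7.03% higher). The subsets did not overlap for 9 of the 10, beside 50.4% of all tested genes: 7 were lower (31.5% of all tested genes) and 2 higher (18.9%). At least 2-fold apart with no overlap were Ctsk and Ctsl on the lower side (2.89% of all tested genes) and Ctse on the higher side (2.94%), 3 of the 10 beside 5.83%. In sorted pools, fewer cells that express a gene and less of its RNA per cell cannot be told apart.

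**Figure D1:**
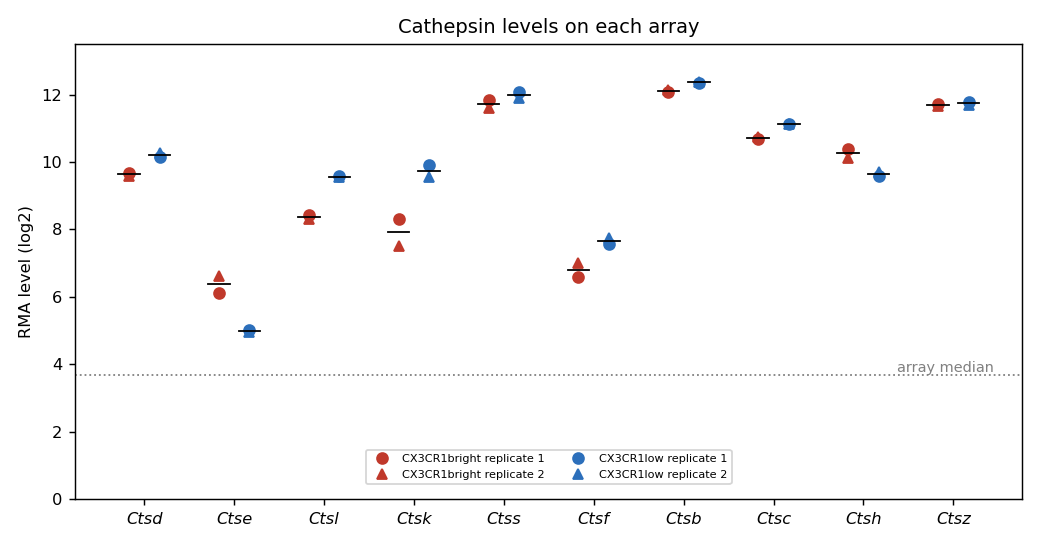
RMA level (log2) of each cathepsin gene on each of the 4 arrays, CX3CR1bright in red on the left and CX3CR1low in blue on the right, with circles for replicate 1, triangles for replicate 2, bars for subset means and a dotted line at the mean of the array medians. Ctsl and Ctsk lie lower and Ctse higher on both CX3CR1bright arrays, while the Ctsz points of the subsets overlap.

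Ctsl encodes cathepsin L, a cysteine endopeptidase that degrades proteins in lysosomes and cuts the invariant chain in thymic epithelium. Its transcript cluster stood at 8.42 and 8.31 on the CX3CR1bright arrays, against 9.57 and 9.54 on the CX3CR1low arrays. The arrays within each subset lay close together, and the subsets were well apart. The difference was -1.19 ± 0.18 (SE), 2.28-fold, with an adjusted p of 0.0845 (limma). It had the smallest p of the family, and 156 of the 13133 tested genes had a smaller one. Without any 1 array the difference was -1.24 to -1.13.

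Ctsk encodes cathepsin K, the collagen-degrading cysteine protease best known from osteoclasts and also made by fibroblasts and some macrophages. It stood at 8.31 and 7.52 on the CX3CR1bright arrays, against 9.92 and 9.56 on the CX3CR1low arrays. Both CX3CR1bright arrays were lower than both CX3CR1low arrays, and the CX3CR1bright arrays differed from each other by more than those of any other cathepsin. Its difference of -1.83 ± 0.32 (SE), 3.55-fold, was the largest of the family, and 38 tested genes had a more negative one. The adjusted p was 0.0966 (limma). Without CX3CR1bright replicate 1 the difference was -2.22. Without CX3CR1bright replicate 2 the difference was -1.43. All 12 fibroblast markers had positive differences, with a median of 0.88. By their median they lay 0.96 and 0.88 above the CX3CR1low mean on CX3CR1bright replicates 1 and 2. The part of fibroblast transcripts in the Ctsk values was not tested.

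Ctsf encodes cathepsin F, a cysteine protease that can cut the invariant chain in macrophages. Its levels were 6.60 and 6.995 on the CX3CR1bright arrays, against 7.56 and 7.73 on the CX3CR1low arrays, with no overlap. The difference was -0.85 ± 0.22 (SE), 1.80-fold, with an adjusted p of 0.154 (limma). Ctss encodes cathepsin S, which cuts the invariant chain in dendritic cells and macrophages and works at neutral pH too. It stood at 11.84 and 11.60 on the CX3CR1bright arrays, against 12.07 and 11.90 on the CX3CR1low arrays, levels that come close to touching. The difference was -0.26 ± 0.20 (SE), with an adjusted p of 0.539 (limma), and it was -0.14 without CX3CR1bright replicate 2 and -0.38 without replicate 1. Ctss and Ctsk lie on the same strand of chromosome 3.

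Of the aspartic cathepsins, Ctsd and Ctse went opposite ways. Cathepsin D, from Ctsd, is the abundant aspartic protease of lysosomes in nearly all cells. Ctsd stood at 9.68 and 9.58 on the CX3CR1bright arrays, against 10.14 and 10.27 on the CX3CR1low arrays, a difference of -0.57 ± 0.19 (SE) or 1.49-fold (limma, adjusted p = 0.197). Cathepsin E, from Ctse, is an endosomal aspartic protease of antigen-presenting cells, including Langerhans cells, and of some epithelia. Ctse stood at 6.11 and 6.63 on the CX3CR1bright arrays, against 5.01 and 4.94 on the CX3CR1low arrays. Both CX3CR1bright arrays were higher, and the CX3CR1low levels lay between the array median and its 75th percentile. The difference was 1.39 ± 0.24 (SE), 2.62-fold, with an adjusted p of 0.0937 (limma).

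Langerhans cell markers stood higher, by their median, on both CX3CR1bright arrays, as Ctse did, and keratinocyte markers clearly so only on replicate 2. The 6 analysed Langerhans cell markers lay, by their median, 0.89 and 2.64 above the CX3CR1low mean on CX3CR1bright replicates 1 and 2. All 6 lay above the array median on every array. Cldn1, Epcam, Cdh1, Kcnn4 and Cd207 were higher on replicate 2, and Il1r2 on replicate 1. The steps from replicate 1 to replicate 2 were largest for Cldn1, Epcam and Cdh1, which are not restricted to Langerhans cells. Cdh1 was at 6.47 and 9.24 on CX3CR1bright replicates 1 and 2. Cd207 was at 6.97 and 7.54 on the CX3CR1bright arrays, against 5.20 and 4.82 on the CX3CR1low arrays. Il1r2 was at 8.18 and 7.98, against 6.41 and 5.98. The 13 analysed keratinocyte markers lay, by their median, 0.38 and 2.49 above the CX3CR1low mean on CX3CR1bright replicates 1 and 2. On CX3CR1low replicates 1 and 2 that median was at 0.30 and -0.30, so CX3CR1bright replicate 1 lay close to CX3CR1low replicate 1. Of the 13 markers 11 to 13 were above the array median, depending on the array. On CX3CR1bright replicate 1 Ctse was 1.13 above the CX3CR1low mean and on replicate 2 it was 1.65 above. The part of those cells in the Ctse difference was not tested. Without CX3CR1bright replicate 2 the difference was 1.13, and without replicate 1 it was 1.65.

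Cathepsins H, C, B and Z act as exopeptidases, which take amino acids off the ends of proteins. Ctsh encodes cathepsin H, an aminopeptidase of lysosomes and of the secretory granules of lung epithelium. It stood at 10.38 and 10.13 on the CX3CR1bright arrays, against 9.57 and 9.70 on the CX3CR1low arrays. Both CX3CR1bright arrays were higher, by 0.75 and 0.49 over the CX3CR1low mean, so replicate 1 was the higher. The median of the 9 analysed conventional dendritic cell markers had the same order, at 0.64 and 0.35 over the CX3CR1low mean on replicates 1 and 2. So had the medians of T cell (1.08 and 0.014) and fibroblast markers (0.96 and 0.88), while those of keratinocyte and Langerhans cell markers were highest on replicate 2. Among the dendritic cell markers Flt3, Zbtb46 and Irf4 were higher on replicate 2, and Kmo, Irf4 and Xcr1 had negative differences. At least 8 of the 9 dendritic cell markers lay above the array median on every array. The part of any of these cells in the Ctsh difference was not tested. The difference was 0.62 ± 0.20 (SE), 1.53-fold, with an adjusted p of 0.198 (limma).

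Ctsc encodes cathepsin C, a dipeptidyl peptidase that activates the granule proteases of mast cells, neutrophils and cytotoxic lymphocytes. Its levels were 10.68 and 10.74 on the CX3CR1bright arrays, against 11.13 and 11.12 on the CX3CR1low arrays, a difference of -0.41 ± 0.18 (SE) that did not pass (limma, adjusted p = 0.304). Ctsb, the gene of cathepsin B, which acts as carboxypeptidase and endopeptidase, stood at 12.09 and 12.12 on the CX3CR1bright arrays, against 12.35 and 12.39 on the CX3CR1low arrays. That difference was -0.26 ± 0.18 (SE), with an adjusted p of 0.492 (limma). Ctsz, the gene of the carboxypeptidase cathepsin Z, was at 11.71 and 11.66 on the CX3CR1bright arrays, against 11.79 and 11.69 on the CX3CR1low arrays. Its levels overlapped, and the difference of -0.054 ± 0.18 (SE) changed sign with the scaling.

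**Figure D2:**
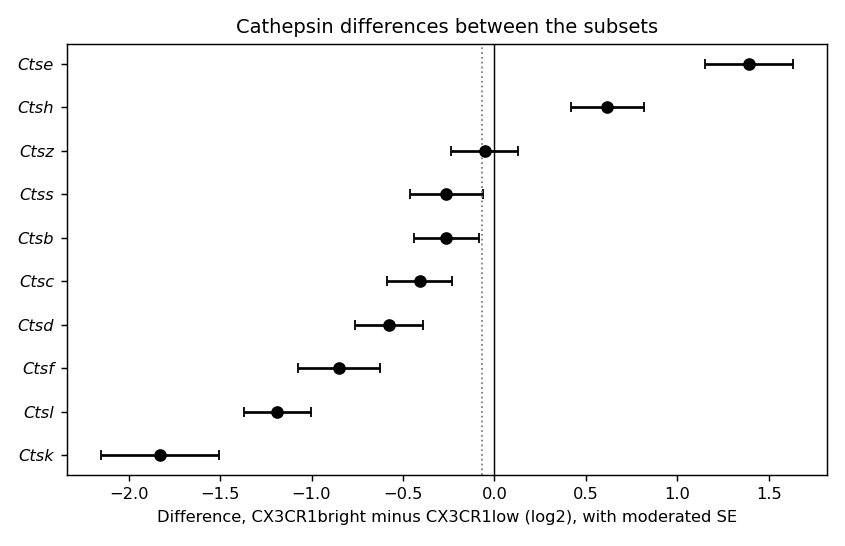
Difference in level, CX3CR1bright minus CX3CR1low (log2), of each cathepsin with its moderated SE (limma, n = 2 arrays per subset), sorted by size, with a solid line at 0 and a dotted line at the median of all tested genes. The points run from 1.39 for Ctse to -1.83 for Ctsk, and the error bars of Ctsz span 0.

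The RefSeq promoter table of build GRCm38.p6 held 7 of the 10 genes, all but Ctsb, Ctse and Ctsh. Lysosomal genes are known targets of the MiT/TFE factors (Tfeb, Tfe3, Mitf and Tfec), which bind E-boxes, and macrophage genes of PU.1. The 250 bases before the annotated start are shown for the 3 most negative differences, Ctsk, Ctsl and Ctsf, and for Ctsd, which holds a repeated E-box. Capitals mark CACGTG in Ctsl (chr13:64370521-64370770, minus strand), Ctsf (chr19:4854915-4855164, plus strand) and Ctsd (chr7:142387828-142388077, minus strand), and GAGGAA on either strand in Ctsk (chr3:95498960-95499209, plus strand).
Ctsk: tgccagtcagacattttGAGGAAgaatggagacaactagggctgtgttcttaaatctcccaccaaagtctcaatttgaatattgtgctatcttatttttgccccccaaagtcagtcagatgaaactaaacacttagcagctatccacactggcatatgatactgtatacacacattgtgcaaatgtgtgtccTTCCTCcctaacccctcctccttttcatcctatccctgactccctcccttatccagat
Ctsl: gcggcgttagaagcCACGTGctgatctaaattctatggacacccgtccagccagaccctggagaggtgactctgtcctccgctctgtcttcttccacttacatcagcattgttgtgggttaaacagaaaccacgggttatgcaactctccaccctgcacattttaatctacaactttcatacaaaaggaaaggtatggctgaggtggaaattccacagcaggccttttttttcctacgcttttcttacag
Ctsf: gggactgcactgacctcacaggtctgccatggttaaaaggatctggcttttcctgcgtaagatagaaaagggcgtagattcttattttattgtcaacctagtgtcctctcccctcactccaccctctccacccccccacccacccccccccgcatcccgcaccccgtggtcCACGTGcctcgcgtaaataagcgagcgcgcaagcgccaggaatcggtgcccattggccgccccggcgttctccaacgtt
Ctsd: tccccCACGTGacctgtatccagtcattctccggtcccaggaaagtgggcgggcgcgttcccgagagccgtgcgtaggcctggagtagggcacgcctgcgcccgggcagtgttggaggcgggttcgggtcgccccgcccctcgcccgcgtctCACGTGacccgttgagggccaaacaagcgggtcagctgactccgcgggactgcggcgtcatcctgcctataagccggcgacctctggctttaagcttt

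CACGTG, which reads alike on both strands, was found in 3 of the 7 windows, those of Ctsl, Ctsf and Ctsd, and in 6.02% of all 32851 windows of the same length. It began 236 bases before the start in Ctsl, 79 in Ctsf, and 245 and 98 in Ctsd. The longer TCACGTG, which overlaps it, was in Ctsd alone and in 3.13% of all windows. GAGGAA, the core of PU.1-type sites, was in Ctsk, Ctsc and Ctss, and in 23.3% of all windows. On either strand, TCATGTG and TGANTCA were in none of the 7, and in 3.25% and 6.75% of all windows. These are matches of letters, the motifs were chosen after the differences were known, and which start these cells use was not measured. The Ctsl window ends in letters like those of a splice acceptor, the end of an intron, so its match may not lie in a promoter.

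The other cathepsin genes were mostly dim. Their list of 15 also held the related genes Tinag and Tinagl1. Of the 15, 10 were below the filter, among them Tinag and the Ctsl-like genes known from rodent placenta (Ctsj, Ctsm, Ctsq, Ctsr, Cts3, Cts6, Cts7, Cts8). Of the 5 tested, 0 passed the adjusted threshold in limma. At an unadjusted p under 0.05 were 2, both lower, beside 11.8% of all tested genes lower and 7.03% higher. Tinagl1, 1 of the 5, differed by 0.14 ± 0.19 (SE). Ctso, the gene of the cysteine protease cathepsin O, was at 5.77 and 6.05 on the CX3CR1bright arrays, against 6.66 and 6.45 on the CX3CR1low arrays, with a difference of -0.64 ± 0.21 (SE). Ctsa, a serine carboxypeptidase that also protects lysosomal sialidase and galactosidase, was at 10.47 and 10.37 on the CX3CR1bright arrays, against 10.91 and 10.87 on the CX3CR1low arrays, with a difference of -0.47 ± 0.18 (SE). Ctsg, a protease of mast cell and neutrophil granules, differed by -0.44 ± 0.29 and overlapped between the subsets. Ctsw, known from cytotoxic lymphocytes, differed by 0.28 ± 0.21, and was highest, at 4.60, on CX3CR1bright replicate 1, where the 6 analysed T cell markers lay 1.08 above the CX3CR1low mean.

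Genes listed as natural inhibitors of cathepsins and related proteins went both ways. Of 28 listed, 26 were analysed and 15 of these were too dim. Among the 11 tested 6 were negative and 5 positive (5 and 6 after quantile normalization or cyclic loess), with 0 past the adjusted threshold in limma. At an unadjusted p under 0.05 were 2 lower and 2 higher, beside 11.8% and 7.03% of all tested genes. The main cystatins, Cst3, which is secreted, and Cstb, which is cytosolic, differed by -0.042 ± 0.18 and -0.28 ± 0.19. Serpinb6a, a cytosolic serpin that inhibits cathepsin G, was at 5.12 and 4.86 on the CX3CR1bright arrays, against 6.13 and 6.52 on the CX3CR1low arrays. Its difference was -1.33 ± 0.23 (SE), with an adjusted p of 0.0936 (limma). The propeptide-like cathepsin inhibitor gene Ctla2a was at 7.79 and 7.63 on the CX3CR1bright arrays, against 6.61 and 6.81 on the CX3CR1low arrays, a difference of 0.998 ± 0.19 (SE) with an adjusted p of 0.106 (limma). Its paralog Ctla2b, whose probes may share its transcripts, differed by 0.58 ± 0.21. Lxn, counted among the 2 lower genes, encodes latexin, an inhibitor of carboxypeptidases outside the cathepsin family, and differed by -0.49 ± 0.19.

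The list of other lysosomal proteases and peptidases also holds ones that act elsewhere, such as Dpp4 and Htra1. Of its 13 tested genes 10 were negative and 3 positive, with a median of -0.34 (9 and 4 after quantile normalization or cyclic loess). None passed the adjusted threshold in limma. At an unadjusted p under 0.05, 3 were lower and 3 higher, beside 11.8% and 7.03% of all tested genes. Dpp7, a dipeptidyl peptidase of lysosomes, differed by -0.95 ± 0.21. Lgmn, the gene of legumain, which processes cathepsins B, H and L to their mature form, differed by -0.34 ± 0.19. The positive ones were Napsa, the aspartic protease napsin A, at 1.50 ± 0.44 (0.93 without CX3CR1low replicate 2), the cell-surface peptidase Dpp4 at 1.05 ± 0.20, and the secreted protease Htra1 at 0.98 ± 0.19. Dpp4 at 3.59 and 3.68 on the CX3CR1low arrays lay at the array median, so its difference can be limited by background.

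Genes that bring cathepsins to the lysosome or hold its membrane had 13 negative and 5 positive members among 18 tested, with a median of -0.33 (12 and 6 after quantile normalization or cyclic loess). None passed the adjusted threshold in limma. At an unadjusted p under 0.05, 5 were lower and 2 higher, beside 11.8% and 7.03% of all tested genes. All 3 Gga genes, adaptors that pack mannose-6-phosphate receptors into vesicles at the Golgi, had negative differences. Gga2 was at 7.30 and 7.57 on the CX3CR1bright arrays, against 8.44 and 8.83 on the CX3CR1low arrays, a difference of -1.20 ± 0.23 (SE) with an adjusted p of 0.104 (limma). Gnptg, a subunit of the enzyme that starts the mannose-6-phosphate tag, differed by -0.79 ± 0.19, and Nagpa, which uncovers the tag, by -0.73 ± 0.19, while Gnptab, the catalytic subunit of the first enzyme, differed by 0.49 ± 0.19. The receptor genes M6pr and Igf2r differed by 0.19 ± 0.18 and -0.73 ± 0.37. Sorl1, a sorting receptor of the VPS10 family, was at 5.28 and 5.80 on the CX3CR1bright arrays, against 4.02 and 4.03 on the CX3CR1low arrays, with a difference of 1.51 ± 0.24 (SE, limma, adjusted p = 0.0913).

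Of the 7 transcription factor genes listed for lysosomal and macrophage genes, 0 passed the adjusted threshold in limma. At an unadjusted p under 0.05 was 1, Tfec, beside 18.8% of all tested genes. Tfec, the MiT/TFE member most restricted to macrophages, was at 7.81 and 6.81 on the CX3CR1bright arrays, against 8.70 and 9.05 on the CX3CR1low arrays. Its difference was -1.56 ± 0.37 (SE), with an adjusted p of 0.137 (limma), but without CX3CR1bright replicate 1 it was -2.07 (adjusted p = 0.0482) and without CX3CR1bright replicate 2 it was -1.06 (adjusted p = 0.186). Tfe3 and Tfeb differed by -0.37 ± 0.19 and -0.24 ± 0.23, Mitf by 0.33 ± 0.18, and the PU.1 gene Spi1 by -0.15 ± 0.18. Irf8, a factor of monocyte and dendritic cell development, differed by -0.42 ± 0.24, but by -0.0065 with the mean of its clusters and by -0.16 without CX3CR1bright replicate 2. Ciita, the activator of MHC class II genes, differed by 0.59 ± 0.37 and overlapped between the subsets.

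Genes for partners and substrates of cathepsins had positive differences throughout, under every scaling tried. All 8 tested class II presentation genes were positive, with a median of 0.35, and 0 passed the adjusted threshold in limma. At an unadjusted p under 0.05, 1 was higher, beside 7.03% of all tested genes. H2-DMb2, a chain of the peptide-exchange factor, was at 6.36 and 6.35 on the CX3CR1bright arrays, against 4.82 and 4.58 on the CX3CR1low arrays, with a difference of 1.66 ± 0.19 (SE, limma, adjusted p = 0.0632). H2-Eb1 and H2-DMa differed by 0.42 ± 0.22 and 0.36 ± 0.23, and the invariant chain gene Cd74 was not analysed here. Markers of antigen-presenting cells moved with these genes: 6 of 9 conventional dendritic cell markers were positive, with a median of 0.52, and 6 of 6 Langerhans cell markers, with a median of 1.91. Their part in the class II values was not tested. All 8 genes of matrix proteins were positive too, with a median of 0.67, but none passed the adjusted threshold in limma. At an unadjusted p under 0.05, 4 were higher, beside 7.03% of all tested genes. With a stricter filter (the 75th percentile of each array) or an intensity trend in the variance Col1a1, Col1a2 and Fn1 passed (adjusted p = 0.0244 to 0.0415). Col1a1 differed by 1.33 ± 0.19, Col1a2 by 1.11 ± 0.18, the fibronectin gene Fn1 by 1.34 ± 0.24 and the decorin gene Dcn by 0.85 ± 0.31. Col1a1, Col1a2 and Dcn are also on the fibroblast marker list, all 12 of whose genes had positive differences, and the part of fibroblast transcripts in these values was not tested.

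**Figure D3:**
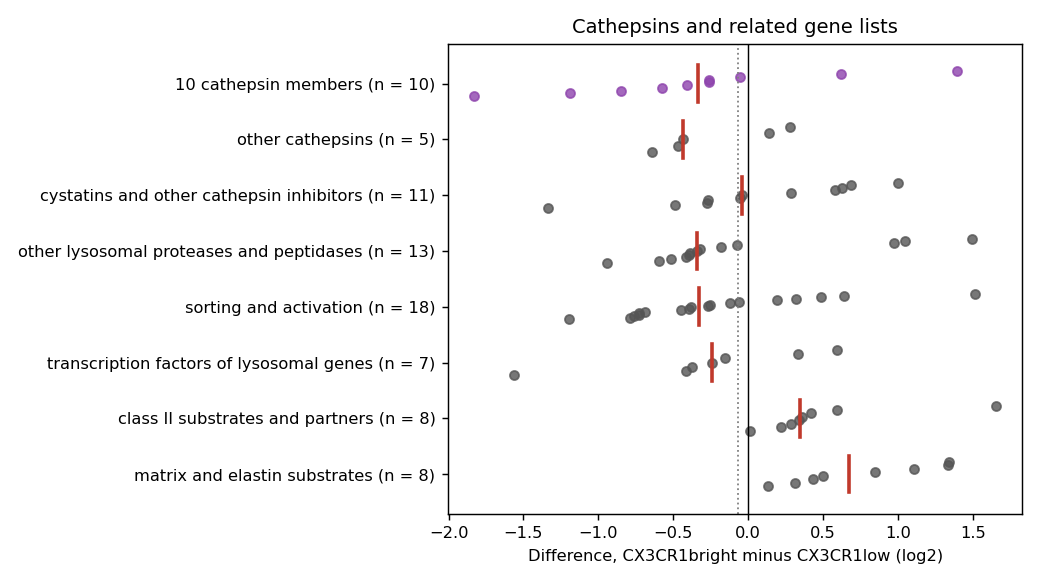
Difference, CX3CR1bright minus CX3CR1low (log2), of the 10 cathepsins in purple and of the tested genes of 7 related lists in grey, 1 point per gene, with red bars at the medians, a solid line at 0 and a dotted line at the median of all tested genes. Medians lie below 0 for the cathepsins (-0.34), other proteases (-0.34) and sorting genes (-0.33), and above 0 for class II (0.35) and matrix genes (0.67). The list of other lysosomal proteases and peptidases also holds ones that are not lysosomal.

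**Figure D4:**
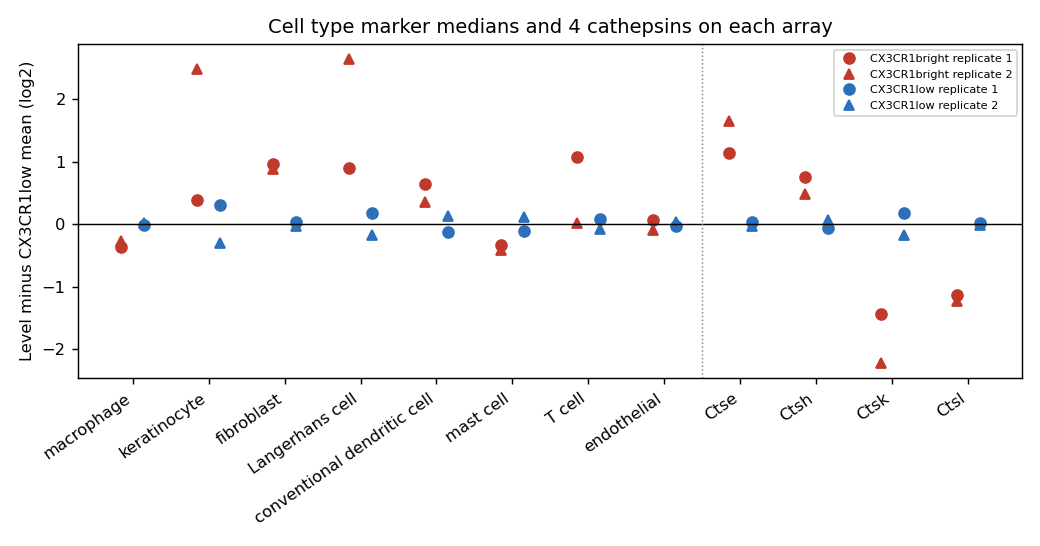
Level minus the CX3CR1low mean (log2) on each array, as the median over each cell type's marker list on the left and for 4 cathepsins on the right, with CX3CR1bright in red, CX3CR1low in blue, circles for replicate 1 and triangles for replicate 2. Keratinocyte and Langerhans cell markers stand highest on CX3CR1bright replicate 2, at 2.49 and 2.64, and T cell markers on CX3CR1bright replicate 1, at 1.08.

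The profile of a gene over the 4 arrays, centred on its own mean, was set against those of Ctse and Ctsk by the root-mean-square distance. Predicted, clone-derived and small RNA genes were left out by the form of their symbols, which also removed all symbols that start with Rn. Nearest to Ctse were the integrin gene Itgav at a distance of 0.027, Crybg1 at 0.057 and Sorl1 at 0.067. Itgav was at 9.50 and 10.02 on the CX3CR1bright arrays, against 8.46 and 8.38 on the CX3CR1low arrays, and its difference of 1.34 was 0.75 with the mean of its clusters. Nearest to Ctsk were Fxyd2, a regulator of the sodium pump, at 0.075, the neuropeptide Y gene Npy at 0.14 and Sorbs3 at 0.15. Fxyd2 was at 7.39 and 6.66 on the CX3CR1bright arrays, against 8.95 and 8.79 on the CX3CR1low arrays. With 4 arrays such nearness is a description of these values.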

How the data were processed

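The authors deposited log2 levels per transcript cluster; per the submitters' processing notes, RMA and version 1.4 of Affymetrix Expression Console were used. RMA corrects background, equalises the arrays' distributions and summarises the probes of each transcript cluster. The genome build was not given in the sources used here. Probe intensities were not used here, and the number of arrays limits the precision.

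Of 34390 clusters, 23521 had 1 gene symbol in the platform annotation, 1814 several and 9055 none. A gene with several clusters was represented by the brightest on average. Testing required a level above the array's own median on 2 or more of the 4 arrays. The comparison used R 4.3.3 and limma 3.58.1 (lmFit, eBayes, two-sided, 2 residual and 3.28 prior degrees of freedom), with Benjamini-Hochberg adjustment over all 13133 tested genes. Since each array is a pool, p-values reflect the spread among pools rather than single mice. The fit was tested on simulated data. The members, the lists and the rule for naming their 4 genes with the smallest p were chosen with earlier results of these data known, and further list members named in the text were chosen after their values were seen. Symbols were matched by Entrez identifier to RefSeq (GRCm38.p6), which updated 0.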

Additional observations from a re-analysis of the deposited data

How the results depend on the processing

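In all, 13 alternatives were run. The count of genes past the adjusted threshold, 18 in limma, was 1 with no filter, 464 with a stricter filter (the 75th percentile), 1 after quantile normalization, 33 after cyclic loess, 308 with an intensity trend, 1 with a robust prior, and 0 to 154 with 1 array left out (the lone array of a subset is then assumed to vary like the other subset). That was 154 without CX3CR1bright replicate 1, and 0 without CX3CR1bright replicate 2, CX3CR1low replicate 1 or CX3CR1low replicate 2 (limma, 2180, 1453 and 1212 at an unadjusted p under 0.05). It was 0 with the replicate number as a block (limma, 2637 at an unadjusted p under 0.05). The labels do not say that a number marks a shared litter, and same-numbered arrays deviated from their subset means with r = 0.16. Of the 10 cathepsins 3 passed with the stricter filter, beside 464 of the 7327 genes tested with it. They were Ctsl, Ctsk and Ctse (limma, adjusted p = 0.0272, 0.0366 and 0.0339), and Ctse met that filter through the CX3CR1bright arrays alone. With an intensity trend 2 passed, Ctsl and Ctsk (limma, adjusted p = 0.0201 and 0.0383), beside 308 of all 13133 tested genes. The median of the 10 was -0.23 after quantile normalization and -0.24 after cyclic loess, and Ctsz reversed to 0.050 and 0.038 there. Over all tested genes the median moved too, from -0.070 to -0.011 after quantile normalization and 0.017 after cyclic loess. The cause was not tested. Of the other named genes, H2-DMb2, Col1a1, Col1a2, Fn1, Gga2, Itgav, Crybg1 and Fxyd2 also passed with the stricter filter and with the trend. Serpinb6a, Ctla2a, Htra1 and Sorbs3 passed with the stricter filter. H2-DMb2 and Htra1 met that filter through the CX3CR1bright arrays alone, and Serpinb6a through the CX3CR1low arrays alone. Without CX3CR1bright replicate 1 Sorl1, Tfec, Fxyd2 and Sorbs3 passed. With 1 array left out Ciita ran from 0.14 to 1.05, Ctsg from -0.77 to -0.10 and Ctsw from 0.086 to 0.47. The other 9 cathepsins had the same direction under all 13. Cx3cr1 lost its call with the block (adjusted p = 0.129), without CX3CR1bright replicate 2 (0.0516) and without CX3CR1low replicate 1 (0.241) or 2 (0.248).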

Other observations

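Cst6, which encodes the cystatin M/E of the epidermis, an inhibitor of cathepsin L and legumain, was too dim to be tested and was chosen after its values were seen. Its level was 3.22 on CX3CR1bright replicate 1 and 5.74 on CX3CR1bright replicate 2, against 3.31 and 3.04 on the CX3CR1low arrays, so that CX3CR1bright replicate 2, the array with the highest keratinocyte markers, stood apart from the other 3 arrays. Mast cell markers, whose granule proteases cathepsin C activates, had a median level of 6.70 and 6.78 on the CX3CR1bright arrays, against 7.19 and 7.32 on the CX3CR1low arrays. Of 8 tested, 7 had negative differences (6 after quantile normalization or cyclic loess), and 0 passed the adjusted threshold (limma). At an unadjusted p under 0.05, 3 were lower, beside 11.8% of all tested genes.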
